A study of Drosophila melanogaster with 288 samples.

Results

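Among the single-egg samples of Drosophila melanogaster labelled 5-6h, a small cluster of samples stood apart from the others, and the comparison described here is between the samples inside and outside that cluster. Of 38 samples labelled 5-6h, 34 had at least 300000 counts on protein-coding genes and at least 4500 genes with a count above 0, and these 34 were used, out of 288 samples in the whole series. A multidimensional scaling of all 250 samples that passed placed 10 of the 34 inside the cluster and 24 outside it. The members were chosen by measured values, namely the expression profile over all coding genes, so the differences between them at 5-6h are a description and carry no test. Tests are given only for age inside the cluster, library and total count. The rule sets a minimum for the count and the scaling corrects for library, but neither decided the side of a sample that passed.

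Single embryos of the strain W1118 were measured at 8 ages with BRB-seq, in which each sample's poly(A) RNA is barcoded, pooled and read at the 3′ end. Both sides share the strain and the 5-6h label, and each sample was 1 whole egg or embryo from fly cages. The eggs were laid in a short window, and the RNA was diluted to a common concentration on each plate before barcoding, so a total count does not measure the RNA of an egg. The labels carry no word on fertilization or arrest, and the samples are called by their side of the cluster here.

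A fly egg is laid with RNA and protein that the mother made, among them the bicoid RNA that patterns the head. Egg activation starts the translation and the destruction of many of these RNAs, and the embryo's own genome then becomes active, with the gap, pair-rule and segment polarity genes dividing the body axis in turn. In embryos of the 5-6h window the germ band is extended and neuroblasts, the stem cells of the nervous system, are separating from the ectoderm.

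The scaling used 9606 protein-coding genes, and a sample belonged to the cluster if its second dimension was above 0 and its first below -0.0554. At 5-6h no sample lay near the limit. The lowest second dimension inside was 0.0682 (replicate 19) and the highest outside was -0.0693 (replicate 5). With Pearson's in place of Spearman's correlation, with all genes of the table, or without batch correction, all 34 samples stayed on the same side.

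**Figure D1:**
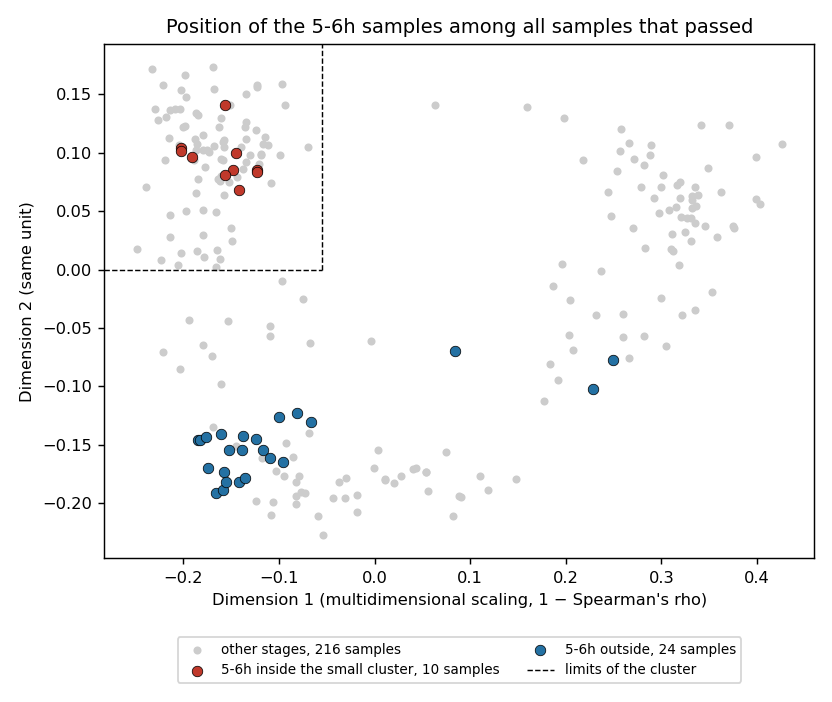
Each point is 1 of the 250 samples that passed, placed by multidimensional scaling (dimension 1 and dimension 2, in units of 1 minus Spearman's rho), with the 5-6h samples in colour and the limits of the cluster dashed. The 10 samples inside lie between 0.0682 and 0.141 on dimension 2, and all 24 outside lie at or below -0.0693.

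The likeness of profiles is also a description, since the cluster was drawn on these same correlations. The mean Spearman's rho was 0.881 over the 45 pairs inside and 0.688 between the sides. Over the 276 pairs outside it was 0.833 (lowest 0.492), with the 3 samples named below included. For the samples inside, mean rho with cluster samples of other ages was 0.842 (2-3h), 0.868 (8-9h), 0.848 (11-12h) and 0.784 (23-24h). Each was above the 0.688 with the other samples of their own age. Outside the cluster, 3 samples stood apart, with a first dimension above 0. Replicates 24 and 25 were most alike to the mean of the 14-15h samples (rho 0.889 and 0.879, against 0.627 and 0.594 with the other 5-6h samples outside), and replicate 5 was the third. Counts over all genes are given with and without these 3 samples, and the counts of genes 2-fold higher or lower in each list below moved by at most 1 gene without them, except for muscle and neuron genes.

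Reads assigned to coding genes summed to between 2340370 and 15994000 per sample inside and between 626787 and 21462600 outside. The ratio of the geometric means, inside to outside, was 0.752 (two-sided permutation test with 100000 resamples, p = 0.338). Within the library E2 the ratio was 0.413 (6 samples against 10, exact permutation test, p = 0.00287, adjusted p = 0.00862 over the 3 libraries), so depth was lower inside there. It was 1.57 in E1_2 (2 against 2, exact p = 0.667, smallest possible 0.167) and 1.39 in E3 (2 against 7, exact p = 0.583). The cluster held 0 of 5 samples of library E1_1, 2 of 4 of E1_2, 6 of 16 of E2 and 2 of 9 of E3, and library and side were not detectably associated (Fisher's exact test, p = 0.320). The share of counts on mitochondrial genes was alike, with medians of 5.47% inside and 5.86% outside. No samples were identical, and a count of 0 in a sample allows at most 1.23 cpm (counts per 1000000 counts of the sample) inside and 4.41 cpm outside, for counting error only.

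A fit over 9069 genes with the library as a covariate (edgeR, TMM scaling) put 1991 genes, 22% of those fitted, at more than 2-fold higher inside, and 4007 genes, 44.2%, at more than 2-fold lower. The ranges of cpm on the sides did not overlap for 257 genes that were higher inside, 2.83%, and for 569 that were lower, 6.27%. Without the 3 outside samples that stood apart, 1949 of 8444 genes were more than 2-fold higher and 3235 lower. Of the 9069 genes of the first fit, the ranges then did not overlap for 323 (3.56%) that were higher and 760 (8.38%) that were lower. Since the cluster was drawn on these values, nothing is read from these shares. The median log2 fold change of all genes was -0.62. In whole eggs, fewer cells of a type and less RNA per cell cannot be told apart.

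Named genes were taken from coding genes whose ranges did not overlap and whose median was at least 20 cpm on the higher side. Their disjoint ranges are thus fixed by the choice. Of the 10 highest of these inside, 3 act in the egg's axis or its activation. bicoid (bcd, 3R:6755842-6759466), whose RNA is localized at the anterior pole and whose protein directs head and thorax, had 139.5, 179 and 293 cpm as lowest, median and highest value inside, and 0.745, 2.12 and 17.5 cpm outside. The log2 fold change was 6.53 ± 0.31 (SE, n = 10 inside and 24 outside). Every sample inside was above every sample outside, as the rule requires.

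swallow (swa, X:6363418-6365708), needed to anchor the bicoid RNA, had 79.6, 180.2 and 379 cpm inside and 0.343, 2.65 and 60.2 cpm outside (log2 fold change 6.05 ± 0.49). Of the 10 named genes the log2 fold change was largest for Trf4-2 (3R:24925216-24927085), which encodes a noncanonical poly(A) polymerase, with 122, 205 and 438 cpm inside and 0.769, 2.23 and 5.398 cpm outside (6.95 ± 0.25). plutonium (plu), a subunit of the PAN GU kinase that acts at egg activation, had 130.3, 368 and 801 cpm inside and 2.69, 8.04 and 23.7 cpm outside (5.88 ± 0.25). By the rule, none of these ranges overlapped. The other 6 genes named by the same rule were Cyp6a22, a cytochrome P450 (6.09), and CG5026, CG4404, CG4586, CG15047 and CG5568, with log2 fold changes between 6.00 and 6.52.

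Receptors and transcription factors of the embryo's patterning and nervous system were among the 10 lowest genes that the same rule named. Genes with overlapping ranges could stand lower, as did sc (-6.47). robo2 (2L:1380086-1420453), a receptor for the guidance cue Slit, had 0.182, 0.674 and 2.92 cpm inside and 24.6, 63.1 and 255 cpm outside, a log2 fold change of -6.11 ± 0.47. asense (ase, X:460747-463176), a transcription factor of neuroblasts, had 0, 0.414 and 0.829 cpm inside and 0.834, 34.1 and 123 cpm outside (-5.64 ± 0.58). E(spl)m7-HLH (3R:26037038-26038019), a repressor switched on by Notch, had 0.996, 7.13 and 14.8 cpm inside and 19.6, 452 and 711 cpm outside (-5.66 ± 0.49). The sides were disjoint for each gene by the rule, and for ase the highest sample inside almost met the lowest outside.

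patched (ptc), the Hedgehog receptor, had 0.249, 0.950 and 1.30 cpm inside and 1.46, 43.3 and 129 cpm outside (-5.51 ± 0.51). The other 6 of the 10 lowest named genes were pdm2, a POU-domain factor of neuroblasts (-5.90), the Toll-family receptor Toll-6 (-5.85), the flap endonuclease Fen1 (-5.69), four-jointed (fj, -5.54), Esp (-5.52) and taranis (tara, -5.49). The medians inside of robo2, ase, ptc, pdm2, Toll-6, Fen1 and Esp were under 1.23 cpm. A count of 0 allows that much in the shallowest sample there, so the size of these differences is limited by depth.

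**Figure D2:**
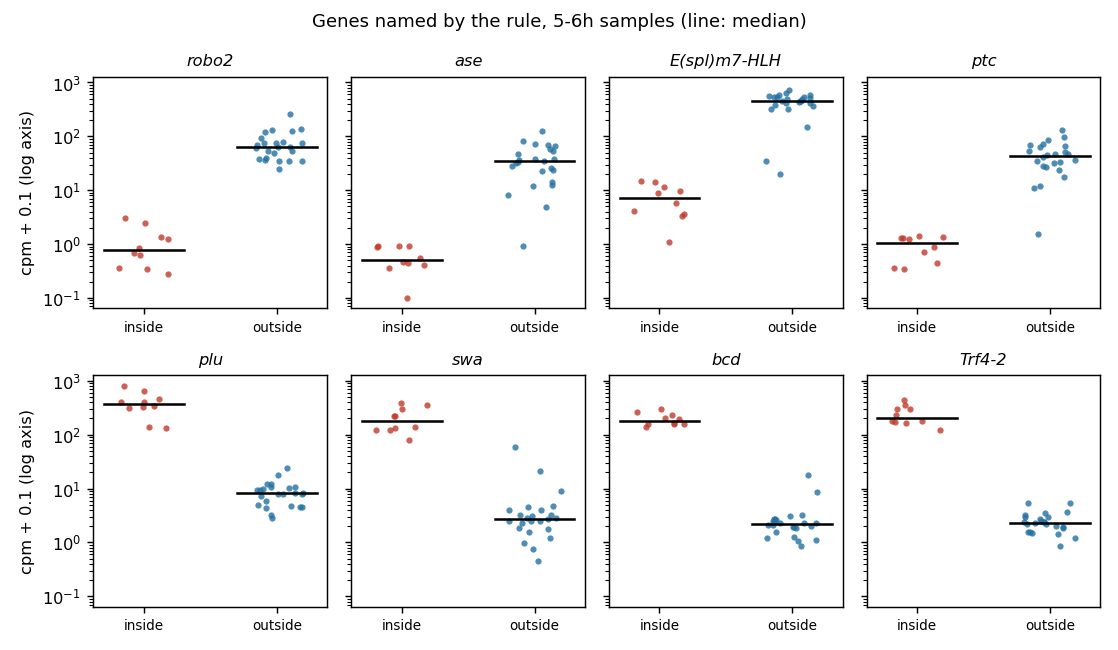
Each point is 1 sample of 5-6h, inside (10) or outside (24) the cluster, at its cpm + 0.1 on a log axis, with the median as a line, for 4 of the 10 lowest and 4 of the 10 highest named genes. By the rule that chose these genes, the sides do not overlap in any of the 8 panels. The gene ptc reaches 1.30 cpm at most inside against 1.46 cpm at least outside.

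The lists of zygotic patterning genes were lower inside in nearly every member fitted, which is a description, since the sides were drawn on these values. Over all genes fitted, 44.2% were more than 2-fold lower. Several members passed the filter on low values only through the outside samples, as did lab, pb and Scr with medians of 0.215, 0.230 and 0.364 cpm inside. All 7 gap genes fitted, which set broad domains of the axis, were more than 2-fold lower (median log2 fold change -4.41), with huckebein (hkb, -5.34) lowest, then Kr (-4.83) and tll (-4.56). The same held for all 8 pair-rule genes fitted (median -4.14; run -5.19, slp2 -5.15, ftz -4.81) and all 9 segment polarity genes fitted (median -4.46; en -5.89, gsb -5.82). Of the examples named here, all but Kr had medians inside under 1.23 cpm, so depth limits the size of their differences. Summed over the 3 lists, the level was 3.74 to 53.1 cpm inside and 167 to 1329 cpm outside, and the sides did not overlap.

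All 8 Hox genes, which give segments their identity, were more than 2-fold lower, against 44.2% of all genes. Their median was -3.24, from pb at -4.95 and Ubx at -4.43 to Antp at -1.67. Of 20 mesoderm and dorsoventral genes fitted, 19 were more than 2-fold lower (median -3.99), among them Doc2 (-5.23), ind (-4.88) and tin (-4.85). The exception was zen (0.67 ± 0.73), which was at medians of 0.470 cpm inside and 0.359 cpm outside. All 14 proneural and neuroblast genes were more than 2-fold lower (median -5.06), with scute (sc, -6.47), E(spl)m8-HLH (-5.87) and E(spl)m5-HLH (-5.69) lowest and the Notch ligand Delta (-1.84) nearest to the median of all genes. These counts were the same without the 3 samples that stood apart. Medians inside were under 1.23 cpm for pb, Ubx, Doc2, ind, tin and sc, so depth limits the size of those differences.

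**Figure D3:**
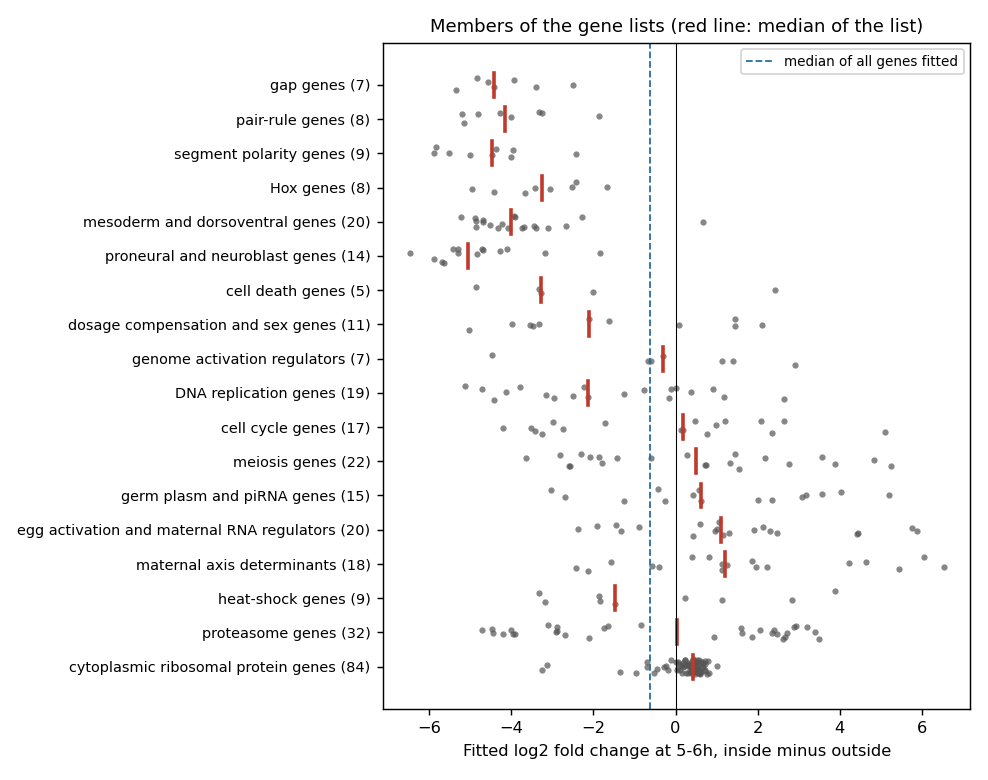
Each point is 1 gene of a list, at its fitted log2 fold change at 5-6h (inside minus outside), with the number of genes fitted in parentheses, the median of the list in red and the median of all 9069 genes (-0.62) dashed. The 6 patterning lists at the top lie left of the dashed line except for zen, while the maternal lists spread to both sides and the proteasome genes fall into separate clouds.

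Lists of maternal genes were mixed, and their counts stand beside 22% higher and 44.2% lower over all genes. Of 18 maternal axis determinants fitted, 11 were more than 2-fold higher inside and 3 lower (median 1.20). Ranges did not overlap for 5, all higher inside, against 2.83% of all genes. Besides bcd and swa these were torso (tor), the receptor that marks the ends of the embryo, with 12.98, 49.1 and 70.6 cpm inside and 0, 0.904 and 4.32 cpm outside (5.44 ± 0.42), the protease easter (ea, 4.63) and cactus (cact, 2.24), the inhibitor of Dorsal. The genes pip (-2.42), tsl (-2.13) and trk (-1.58) were more than 2-fold lower inside, with overlapping ranges.

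Among 20 egg activation and maternal RNA regulators, 12 were more than 2-fold higher inside and 4 lower (median 1.11). Under the other settings 8 to 12 were higher and 4 to 7 lower. The 12 include png (1.00 ± 1.04) and orb (1.31 ± 0.96), whose levels were low on both sides. Their medians were 0.276 and 0.699 cpm inside and 0.296 and 0.642 cpm outside. wispy (wisp), the cytoplasmic poly(A) polymerase of the egg, had 30.0, 86.9 and 243 cpm inside and 0.372, 2.10 and 11.3 cpm outside (5.76 ± 0.37). Smaug (smg), which brings deadenylase to maternal RNAs, had 58.5, 229 and 360.1 cpm inside and 3.09, 13.2 and 32.3 cpm outside (4.44 ± 0.27). The deadenylase subunits Pop2 (-1.92) and twin (-1.45) were lower inside.

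In the germ plasm and piRNA list 7 of 15 genes were higher and 3 lower. oskar (osk), which builds the germ plasm, had medians of 8.97 cpm inside and 0.789 cpm outside (3.08). tejas (tej, 5.19) and squash (squ, 4.04), which act in the piRNA pathway, had disjoint ranges, and vls (-3.03), tud (-2.69) and gcl (-1.26) were lower. In the meiosis list 9 of 22 genes were higher and 9 lower, which is near the share of all genes for those lower. The highest were bag of marbles (bam, 5.25), which had 22.1, 69.8 and 136 cpm inside and at most 10.1 cpm outside, and the synaptonemal complex gene corolla (4.84).

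Some genes with related roles, paired after their values were seen, stood on opposite sides. Of the Cdc25 phosphatases, twine (twe), which acts in meiosis and the early cycles, had 94.7, 236 and 385 cpm inside and 1.48, 7.52 and 33.8 cpm outside (5.10 ± 0.28), while string (stg), which the embryo's own genome supplies for later divisions, was lower inside (-1.72 ± 0.32). Of the cell cycle list, 5 of 17 genes were higher inside, CycB among them (2.65), and 7 were lower, among them the inhibitor dacapo (dap, -3.52) and Cyclin E (CycE, -2.75). These shares are near those of all genes (22% and 44.2%). BigH1, the linker histone of the early embryo, had 49.2, 136 and 675 cpm inside and 1.46, 4.78 and 23.0 cpm outside (5.27 ± 0.43). The centromere histone cid was lower (-3.78). Of 6 histone genes fitted, these were the 1 more than 2-fold higher and the 1 lower, against 22% and 44.2% of all genes. Of the DNA replication genes, 11 of 19 were more than 2-fold lower inside, Orc2 (-5.14, median 0.339 cpm inside) lowest. The 2 that were higher were Sld5 (2.64) and dup (1.18).

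Of 11 genes of dosage compensation and sex determination, 7 were more than 2-fold lower inside and 3 higher, against 44.2% and 22% of all genes. roX1 (X:3857230-3862697), the noncoding RNA that coats the male X, had 3.49, 8.66 and 16.5 cpm inside and 50.5, 302 and 1327 cpm outside, a log2 fold change of -5.04 ± 0.43 with no overlap. roX2 (-3.48), msl-2 (-3.55) and Sex-lethal (Sxl, -3.31) were lower too, while msl-1 (2.10), mof (1.45) and msl-3 (1.44) were higher. The death activator reaper (rpr) had 0.118 to 5.26 cpm inside and 27.9 to 182 cpm outside (-4.85 ± 0.41) and its target Diap1 was also lower (-3.33), while the caspase Dronc was higher (2.43). Of the early zygotic cellularization genes slam was higher inside (3.57 ± 0.35) and halo was lower (-1.88 ± 0.41). Of 7 regulators of genome activation, Clamp (2.92), nej (1.396) and Br140 (1.13) were more than 2-fold higher, grainy head (grh, -4.47) was lower, and zelda (zld, -0.31) was near the median of all genes. Of 9 heat-shock genes fitted, 3 were higher, Hsp26 (3.89) foremost, and 5 lower, with Hsp83 at -3.33 and DnaJ-1 at -3.19.

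The proteasome list split along the particle's structure, a split chosen after the values were seen. Its counts stand beside 22% higher and 44.2% lower over all genes. All 13 genes of the catalytic core fitted (Prosalpha and Prosbeta genes) were more than 2-fold higher inside, with log2 fold changes from 1.60 (Prosbeta2) to 3.50 (Prosalpha5). Of 19 genes of the regulatory particle (Rpt and Rpn genes), which recognizes and unfolds substrates, 15 were more than 2-fold lower, down to -4.71 (Rpn1), Rpt4 (1.62) and the low Rpt3R (1.87) were higher, and Rpn6 (-0.85) and Rpn12 (0.93) were within 2-fold. Summed, the core had 7204, 15340 and 19400 cpm inside and 1540, 2871 and 3669 cpm outside, and the regulatory particle 415, 787 and 1007 cpm inside and 1076, 2456 and 4742 cpm outside. The ratio of the sums was 15.4 to 33.5 inside and 0.647 to 1.47 outside. The ratio compares samples, and since reads come from the 3′ end it does not give the proportion of the particles.

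Genes for cytoplasmic ribosomal proteins differed little between the sides, with 1 of 84 more than 2-fold higher and 3 lower, against 22% and 44.2% of all genes. Their summed medians were 348000 cpm inside and 334200 cpm outside. Of the markers of other sources of RNA, those of eggshell, yolk, sperm and testis were near 0 at 5-6h. The 22 eggshell and yolk protein genes summed to 1.23 to 5.73 cpm inside and 1.47 to 9.06 cpm outside, and the 12 sperm and testis genes in the table summed to at most 1.64 cpm inside and 5.87 cpm outside, with none of either list passing the filter on low values. In the 2-3h samples inside, used for the age tests below, the eggshell and yolk sum had a median of 2.39 cpm but reached 397 cpm. There 3 genes of that list passed the filter of the age fit, and 0 were called from 2-3h to 5-6h. The 13 muscle and neuron differentiation genes summed to medians of 811 cpm inside and 823 cpm outside at 5-6h, but reached 7267 cpm in replicate 21 inside and 31979 cpm outside. Of these genes elav, a neuronal RNA-binding protein, was lower inside (-3.98), and 8 of the 13 were more than 2-fold lower, against 2 of 12 fitted without the 3 samples that stood apart.

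Age was then compared inside the cluster, which held 25 samples of 2-3h, 10 of 5-6h and 9 of 8-9h. The same rule chose the samples at each age from their expression values, so these tests (edgeR's quasi-likelihood test with library as a covariate, Benjamini-Hochberg adjusted p under 0.05, over 7865 genes) hold for samples chosen in that way. Between 2-3h and 5-6h, 585 genes rose, 7.44% of those tested, and 1140 fell, 14.5%. With DESeq2's size factors 312 rose and 1250 fell, and without replicates 23 and 26 of 5-6h 115 rose and 690 fell. The counts depended most on the 2-3h samples near the limit of the cluster. Of the 25, 14 had a second dimension between 0.00404 and 0.05, against 0 of the 5-6h and 8-9h samples, and with only the samples above 0.05 (the stricter limit, chosen after the data were seen), 32 genes rose and 124 fell. With all samples 154 of these calls were made in the same direction. Between 5-6h and 8-9h, 0 genes rose and 1 fell, 0.0127%, with 569 genes at an unadjusted p under 0.05. DESeq2 called 4 rises and 4 falls there. In simulated data for 5-6h to 8-9h, 16 of 96 changes of 2-fold and 58 of 100 of 4-fold were recovered. From 2-3h to 5-6h these were 23 of 96 and 67 of 100. Changes of such sizes can thus go uncalled. The comparisons share the 5-6h samples, and a difference between them was not tested. None of the samples of 5-6h inside came from E1_1.

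The 5 called genes that fell most, Bro, bard, twisted gastrulation (tsg), CG14014 and term, had log2 fold changes between -7.75 and -8.05. Their levels went with a split among the 2-3h samples. In 11 of the 25, the sum of 6 genes of early zygotic transcription (nullo, bnk, Sry-alpha, Z600, halo and CG14427) was 914 to 9246 cpm, and in the other 14 it was at most 65.5 cpm. It was 4.71 to 40.3 cpm in the 5-6h samples inside. Bro, the partner of the Runt-family factors, had 70.3 to 883 cpm in those 11 samples, at most 10.2 cpm in the other 14 and at most 2.73 cpm at 5-6h. Without the 11 samples, also chosen after the data were seen, Bro (-0.49 ± 0.61, adjusted p = 0.585) and bard (-0.43 ± 0.42, adjusted p = 0.478) were no longer called, and tsg, CG14014 and term did not pass the filter. Of the gap genes 6 of 7 fell, and of the pair-rule genes all 8 tested fell, against 14.5% of all genes. Without the 11 samples 3 of each list passed the filter and 0 were called by edgeR.

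The falls given next were called with and without those 11 samples, but of them only that of Pop2 was called with samples above 0.05 in the second dimension. Pop2, the catalytic deadenylase subunit, had 56.2 to 440.2 cpm at 2-3h and 14.2 to 76.3 cpm at 5-6h, a log2 fold change of -2.22 ± 0.33 (edgeR adjusted p = 1.08e-05), of -2.45 ± 0.37 without the 11 samples and of -1.74 at the stricter limit (edgeR adjusted p = 0.0189). CycE fell from a median of 62.3 to 9.81 cpm (-2.27 ± 0.40, edgeR adjusted p = 0.000125) and its kinase Cdk2 from 131 to 29.4 cpm (-2.12 ± 0.40, edgeR adjusted p = 0.000264), with edgeR adjusted p of 0.0510 and 0.0647 at the stricter limit. In the germ plasm list 6 of 17 genes fell and 3 rose, against 14.5% and 7.44% of all genes. Polar granule component (pgc, -3.29) and germ cell-less (gcl, -2.54) were among those that fell, and tej (0.93) and squ (0.61) among those that rose. tej was not called without replicates 23 and 26 (adjusted p = 0.336) nor squ without the library covariate (0.195), and at the stricter limit 0 of the 17 genes were called. gnu, an activator of the PAN GU kinase, fell (-3.85 ± 0.89, edgeR adjusted p = 0.00231) while its partner plu rose (0.91 ± 0.22, edgeR adjusted p = 0.00391), though it was not called without replicates 23 and 26 (adjusted p = 0.0652). Of 9 heat-shock genes 6 fell, with Hsp83 at -2.45 and the chaperone Hsc70-3 at -2.05, and 0 rose, while at the stricter limit 0 of the 9 were called.

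Of 19 genes of the proteasome's regulatory particle 13 fell from 2-3h to 5-6h and 0 rose, against 14.5% and 7.44% of all genes. From 5-6h to 8-9h 0 of the 19 were called. At the stricter limit 4 of 19 fell, Rpn10 and Rpt6 among them, against 124 of 7772 genes tested there. The summed level inside was 987 to 3960 cpm (median 1853) at 2-3h, 415 to 1007 cpm (787) at 5-6h and 325 to 780 cpm (480.4) at 8-9h. Rpn10, a ubiquitin receptor, fell by 2.49 ± 0.36 on the log2 scale (edgeR adjusted p = 4.43e-06) and the change of Rpt6, an ATPase of the base, was -2.58 ± 0.39 (1.01e-05). Of the 13 core genes 1 rose (Prosbeta5, 0.61) and 0 fell, and that call was lost with no filter on low genes, after thinning, in libraries E2 and E3 and at the stricter limit (adjusted p between 0.0598 and 0.134). Without the 11 samples 13 of 19 regulatory genes fell and 4 of 13 core genes rose. Of the 7773 genes tested in that setting 1064 fell and 698 rose.

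**Figure D4:**
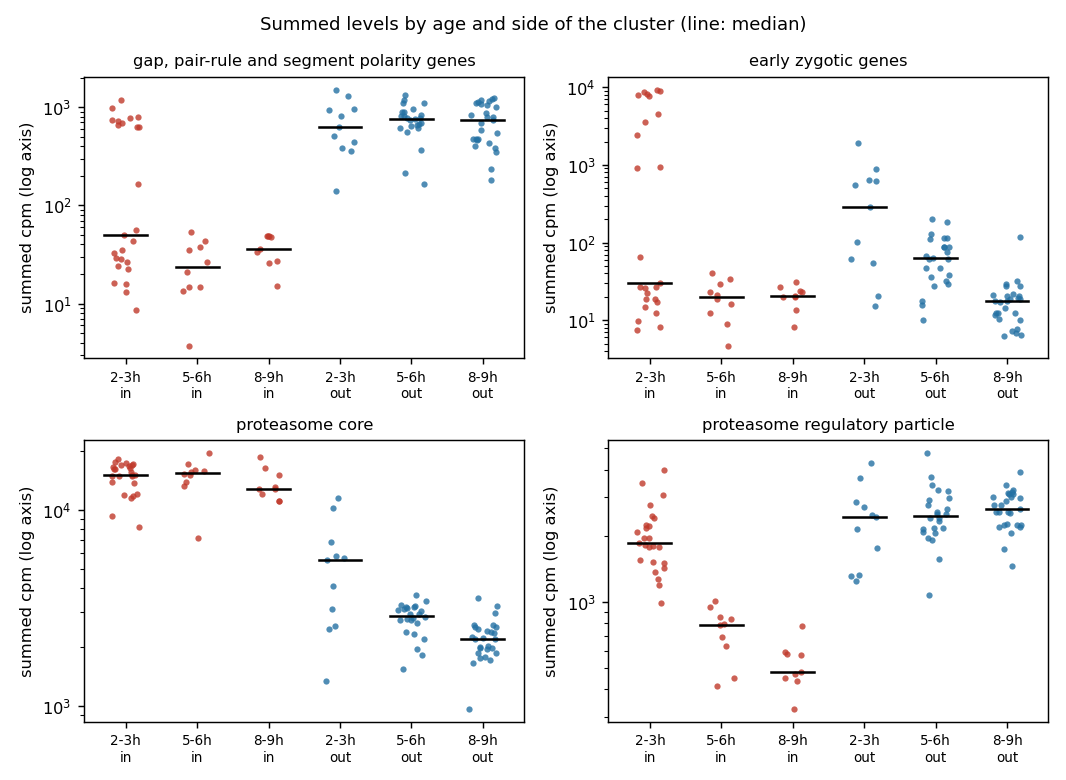
Each point is 1 sample, by age and by side of the cluster (in or out), at the summed cpm of a group of genes on a log axis, with the median as a line. The early zygotic sum separates 11 samples of 2-3h inside the cluster, and the regulatory particle has medians of 1853, 787 and 480.4 cpm at 2-3h, 5-6h and 8-9h inside.

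Of 82 genes for cytoplasmic ribosomal proteins 46 rose from 2-3h to 5-6h and 0 fell, against 7.44% and 14.5% of all genes. Their median log2 fold change was 0.51, against 0.03 over all genes, and RpL27A rose by 0.92 ± 0.18 (edgeR adjusted p = 0.000308). The median was positive under all 12 other settings, but the number that rose was 4 without replicates 23 and 26 of 5-6h, 2 at the stricter limit and 53 without the 11 early zygotic samples. Over all genes tested, 115 of 7901, 32 of 7772 and 698 of 7773 rose in these settings. The beta-tubulin betaTub56D rose (1.17 ± 0.23, edgeR adjusted p = 0.000488) and gammaTub23C fell (-2.77 ± 0.63, edgeR adjusted p = 0.00186; 0.0583 at the stricter limit).

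The 5 called genes that rose most were narya, Act57B, CG43349, Act87E and Tsc1. For all but Tsc1, a negative regulator of growth, the call was lost without 1 or 2 samples. The muscle actin Act57B was at 5360 cpm in replicate 21 and at 19.1 to 160.2 cpm in the other 9 samples of 5-6h, and was not called without replicate 21 (0.82, edgeR adjusted p = 0.0575). Act87E was at 617 cpm in the same sample and at 31.1 cpm or less in the others. narya, a meiotic RING finger gene, and CG43349 were not called without replicates 23 and 26 (edgeR adjusted p = 0.920 and 0.245). Tsc1 had 0 to 99.9 cpm at 2-3h and 15.3 to 146 cpm at 5-6h (1.54 ± 0.39, edgeR adjusted p = 0.00497), with overlapping ranges, and was not called in libraries E2 and E3 (adjusted p = 0.0629) or at the stricter limit (0.162).

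Between 5-6h and 8-9h the called gene was Snap29, a SNARE protein of membrane fusion. It had 31.6, 66.5 and 104 cpm at 5-6h and 1.01, 17.0 and 43.4 cpm at 8-9h, a log2 fold change of -2.003 ± 0.37 (edgeR adjusted p = 0.0186) with overlapping ranges. It was called under 6 of the 10 other settings. The medians at 8-9h inside were 146 cpm for bcd, 211 cpm for plu and 211 cpm for twe, against 179, 368 and 236 cpm at 5-6h. None of the 3 was called, which does not show that they were unchanged.

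**Figure D5:**
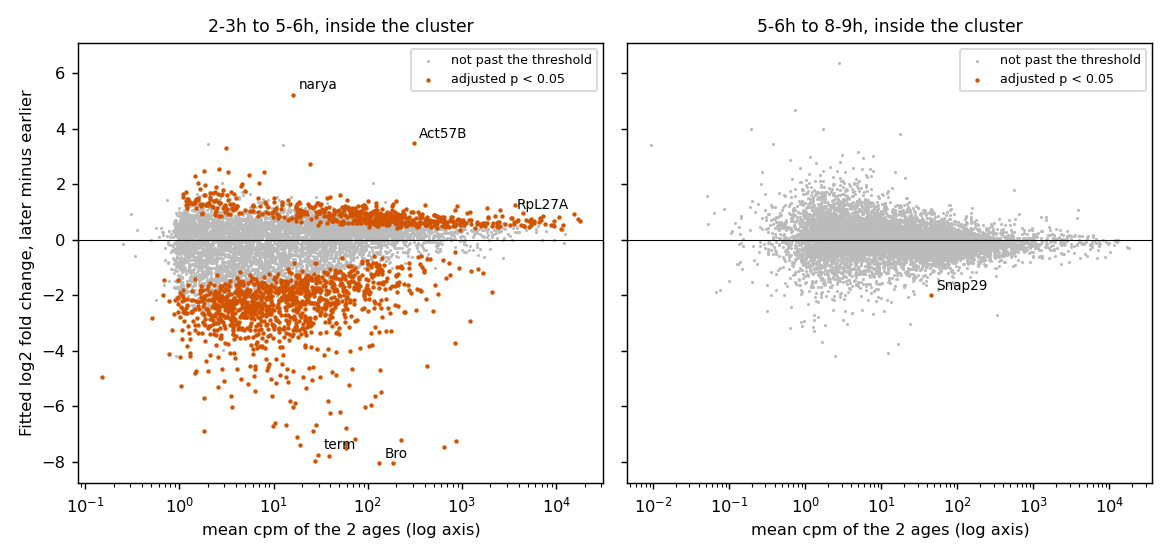
Each point is 1 of 7865 genes, at its mean cpm over the ages compared (log axis) and its fitted log2 fold change inside the cluster (later minus earlier), with genes past the adjusted p of 0.05 in orange. From 2-3h to 5-6h 585 genes rose and 1140 fell, and from 5-6h to 8-9h Snap29 alone passed.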

How the data were processed

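The authors mapped the reads with STAR to BDGP6 with Ensembl release 91, counted them per gene with HTSeq and deposited raw counts of 17698 genes in 288 samples, without normalization. Whether the counting used strand, and what it did with reads shared by similar genes (E(spl), actin, tubulin and ribosomal protein families), is not given in the sources used here. Coding status and positions are from Ensembl release 115 (BDGP6), which held 17560 of the genes. Age, library and well came from the sample titles.

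Samples with at least 300000 coding counts and 4500 genes were kept. The scaling used quantile-normalized log2 cpm (limma 3.58.1) after ComBat for library (sva 3.50.0). Fits used edgeR 4.0.16 in R 4.3.3 on genes with a mean cpm above 1, with library as a covariate. Levels (cpm) are counts per 1000000 counts of the sample. No sequence is printed, since no reference sequence was used here.

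Named genes were the 10 highest and 10 lowest log2 fold changes among coding genes with disjoint ranges and a median of at least 20 cpm on the higher side. For each age comparison they were the 5 highest and 5 lowest called genes with a mean of at least 20 cpm. List examples were the 3 largest changes at 5 cpm or more. roX1, roX2, Sxl and msl-2 were added. Other members, the proteasome split and the early zygotic sum were named after their values were seen, and the members and lists were chosen with earlier results of these data known. Whether samples of 1 age came from the same cage is not in the labels, so p-values measure the spread between eggs. The fits were tested on simulated data. Alternatives were DESeq2 1.42.0, other scaling, filters, covariates, depths and sample sets.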

Additional observations from a re-analysis of the deposited data

Results flagged for a closer look

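Samples far from the others of their group were looked for in 35 named genes and the total count, in the 10 samples of 5-6h and the 9 of 8-9h inside the cluster, on a log scale. Of 72 groups of values, 9 held such a sample. The nominal rate of about 1 in 20 does not apply, since most of these genes were named from these same data.

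At 5-6h, replicate 21 was high for Act57B (5360 cpm, others 19.1 to 160.2) and for Act87E (617 cpm, others 9.54 to 31.1). Replicate 26 was high for CG43349 (347 cpm, others 3.06 to 13.8), replicate 23 for CG4404 (163 cpm, others 51.5 to 94.6), replicate 10 for pdm2 (2.34 cpm, others 0.249 to 1.07) and replicate 16 for tsg (1.07 cpm, others 0 to 0.249).

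At 8-9h, replicate 34 was low for Snap29 (1.01 cpm, others 11.1 to 43.4) and for roX1 (1.01 cpm, others 6.538 to 21.1), and replicate 31 was high for tara (9.99 cpm, others 1.01 to 2.22).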

How the results depend on the processing

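Inside against outside at 5-6h, the numbers of genes more than 2-fold higher or lower stayed within 1.5 times of 1991 and 4007 under every alternative but one. With no filter on low genes 6423 were lower. Scaling by library size alone moved the median of all genes by -0.35, thinning by -0.25, leaving out the 3 outside samples that stood apart by 0.46, and the share of higher among both was then 25.1%, 26.3% and 37.6%, against 33.2%. Of 1177 gene values recomputed, 1098 moved by less than 1 SD between replicates, 78 moved more (37 without library E2) and 1 reversed, wupA at 0.44 without those 3 samples. The total count differed by 0.195 (log10) in E1_2, 0.143 in E3 and -0.384 in E2, against -0.124 over all.

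From 2-3h to 5-6h the genes that rose (585) were 312 with DESeq2's size factors, 229 with no filter, 131 after thinning, 171 in libraries E2 and E3 115 without replicates 23 and 26 of 5-6h and 32 with a second dimension above 0.05. Those that fell (1140) were 758 after thinning, 622 in E2 and E3, 690 without those replicates and 124 above 0.05, where 11 samples of 2-3h remained. DESeq2 called 452 and 1608. The median of all genes moved by -0.13 with DESeq2's size factors, and the share of rises was then 20.0%, against 33.9%. Without the 11 early zygotic samples 698 rose and 1064 fell, 1270 of these calls were made with all samples too in the same direction, Sxl reversed to 0.29 (adjusted p = 0.704) and roX1 to 0.78 (adjusted p = 0.0829). Some of these settings use fewer samples or counts, and otherwise the cause was not tested.

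From 5-6h to 8-9h, 0 genes rose and 1 fell. DESeq2 gave 4 and 4, no library covariate 2 and 2. With no filter, after thinning, in E2 and E3, and with only the ages compared, 0 fell, and without the early zygotic samples 3 fell. With a second dimension above 0.05, 1 rose and 2 fell.

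The settings that leave out the 3 outside samples, the 11 early zygotic samples, replicate 21 or replicates 23 and 26 of 5-6h, or that set the second dimension above 0.05, were chosen after seeing the data. Depth limits the low genes. No paired analysis was possible because the titles carry wells and no replicate numbers.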

Other observations

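The 4 samples of 5-6h that failed the limits all came from library E3, with 48049 to 247048 counts on coding genes, and were placed on neither side. Replicates 28, 33 and 38 had 349, 907 and 1263 cpm over the gap, pair-rule and segment polarity genes, and replicate 36, the shallowest, had 19.8 cpm. plu was at 10.9, 11.6, 0 and 39.6 cpm in replicates 28, 33, 38 and 36, and bcd at 10.9, 5.81, 3.75 and 0 cpm. In samples this shallow these levels of plu and bcd, and the 19.8 cpm of replicate 36, are a few reads at most. They place none of the samples on a side.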
